A study of Mus musculus with 12 samples.

Results

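The named pseudogenes of the mouse annotation were examined in CT26 cells, a mouse colon carcinoma line, together with the functional genes, called parents here, from whose symbols their names are built. Members were all rows of the expression table whose biotype contains the word pseudogene and whose symbol contains -ps, 213 of 12584 rows. Of these, 183 are annotated as processed pseudogenes and 11 as transcribed processed pseudogenes. The other 19 are not of the processed kind: 10 are unprocessed, 6 transcribed unprocessed, 2 transcribed unitary and 1 polymorphic. The symbol before -ps matched a protein-coding row for 188 members, which share 106 parents, and no row matched it for 25. The members belong mostly to translation. Grouped by the start of the symbol, 118 carry that of a cytosolic ribosomal protein, 5 an Hmg or H3f symbol (the chromatin list) and 3 that of a glycolytic enzyme. Another 2 carry an Ndufa or Atp5 symbol (the respiratory list), 2 that of a translation factor, 1 that of a cytoskeletal protein and 82 other symbols. Copies of other chromatin genes, such as Kansl2-ps and Dnmt3l-ps1, are among those 82.

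Treatment lasted 24 h in 4 groups of 3 libraries. Libraries 1 to 3 came from cells given PBS, 4 to 6 from cells given NP@M, 7 to 9 from cells given NP-D@M and 10 to 12 from cells given NP-D@MP, names that the labels do not spell out. From its title, the series is about a nanodrug wrapped in an engineered cancer cell membrane, aimed at CDKs and combined with PD-L1 antibody therapy. The 6 libraries whose treatment name holds a D are called libraries with D, and the other 6, including PBS, libraries without D. All 4 groups share the same cell line, and no label tells whether libraries of the same group were separate cultures. The p-values thus reflect the spread between these samples alone, and that spread may be technical.

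A processed pseudogene arises when the messenger RNA of a gene is reverse transcribed and inserted elsewhere in the genome. It therefore lacks introns, usually lacks the promoter of its parent, and collects mutations that the parent does not tolerate. Genes with abundant messenger RNA in the germ line, ribosomal protein genes above all, have left many such copies in mammalian genomes. Because a young copy is nearly identical to its parent, a short read from either can align to both, and an expression value for the copy depends on how such reads were assigned.

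The sequences show how little there is to tell members from parents. All 213 members were found in the GENCODE annotation of GRCm38, 210 with the coordinates given in the table, and 196 have a single exon. A member aligned to a transcript of its named parent in 192 cases, with a median identity of 98.9% over the aligned bases and a lowest value of 71.6%. Identity was 100% in 20 members and at least 99% in 88. When each member was cut into overlapping words of 50 bases, a median of 71.9% of its words also occurred in another annotated gene. All words recurred elsewhere in 33 members, fewer than 50% of them in 57 and none in 3. The alignment spanned at least 95% of the parent's coding sequence in 178 members. An open reading frame, in any forward frame, was nearly as long as the parent's or longer in 112.

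Rps2 encodes a protein of the small ribosomal subunit, and its copy Rps2-ps13 was among the most abundant members. The stretch below holds the most differences between them in any window of 150 bases of the Rps2 coding sequence, bases 55 to 204. It lies at chrX:52898642-52898791 of GRCm38 on the plus strand, outside other annotated genes, and capitals mark the 3 bases that differ from the parent.
Rps2: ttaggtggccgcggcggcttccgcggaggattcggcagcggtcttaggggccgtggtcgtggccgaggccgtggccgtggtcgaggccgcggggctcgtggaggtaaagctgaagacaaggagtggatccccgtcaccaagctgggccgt
Rps2-ps13: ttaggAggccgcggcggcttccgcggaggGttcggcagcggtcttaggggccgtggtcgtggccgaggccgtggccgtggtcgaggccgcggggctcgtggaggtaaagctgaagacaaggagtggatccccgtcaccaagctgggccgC

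Tpt1 encodes the translationally controlled tumour protein, and Ptges3 encodes the HSP90 co-chaperone p23. Their copies are shown because no base separates them from the parents over the aligned length, while 1 pair rose and the other fell. The first 90 coding bases are given, at chr6:99878245-99878334 on the minus strand for Tpt1-ps3 and at chr6:85843980-85844069 on the plus strand for Ptges3-ps, both outside other annotated genes. No capitals appear because no base differs.
Tpt1: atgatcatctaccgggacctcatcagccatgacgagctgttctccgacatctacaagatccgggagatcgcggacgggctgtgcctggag
Tpt1-ps3: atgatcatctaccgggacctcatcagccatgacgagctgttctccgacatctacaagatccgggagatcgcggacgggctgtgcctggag
Ptges3: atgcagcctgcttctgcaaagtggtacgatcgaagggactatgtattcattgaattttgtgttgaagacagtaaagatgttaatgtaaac
Ptges3-ps: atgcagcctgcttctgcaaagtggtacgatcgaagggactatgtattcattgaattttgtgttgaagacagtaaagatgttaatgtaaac

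Hmgb1 encodes a high mobility group protein that bends DNA in chromatin, and its 2 named copies went opposite ways in the FPKM values. The lines give coding bases 10 to 159, at chrX:146175951-146176100 for Hmgb1-ps2 and at chr11:41141772-41141921 for Hmgb1-ps1, both on the plus strand and outside other genes. Capitals mark the 2 and 3 bases that differ from Hmgb1.
Hmgb1: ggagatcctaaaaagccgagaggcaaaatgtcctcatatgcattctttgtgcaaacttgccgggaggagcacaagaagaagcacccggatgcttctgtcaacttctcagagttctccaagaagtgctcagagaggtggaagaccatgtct
Hmgb1-ps2: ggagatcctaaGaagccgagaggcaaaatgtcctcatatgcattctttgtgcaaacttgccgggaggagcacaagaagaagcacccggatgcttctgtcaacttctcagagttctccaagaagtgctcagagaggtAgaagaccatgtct
Hmgb1-ps1: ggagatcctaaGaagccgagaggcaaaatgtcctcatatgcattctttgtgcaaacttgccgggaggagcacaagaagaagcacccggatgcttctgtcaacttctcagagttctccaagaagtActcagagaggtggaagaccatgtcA

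Rbpj encodes the DNA-binding partner of the Notch receptors' intracellular domain, and Rbpj-ps3 fell with it. Coding bases 970 to 1089 are shown, at chr6:46529843-46529962 on the minus strand, inside an intron of Cntnap2, which is transcribed from the opposite strand. Capitals mark the 2 differing bases.
Rbpj: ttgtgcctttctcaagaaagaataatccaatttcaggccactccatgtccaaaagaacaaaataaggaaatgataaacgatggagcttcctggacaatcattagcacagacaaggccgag
Rbpj-ps3: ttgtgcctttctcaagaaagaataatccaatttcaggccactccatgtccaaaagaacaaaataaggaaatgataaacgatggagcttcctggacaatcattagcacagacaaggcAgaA

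Rps19 encodes another protein of the small subunit, and Rps19-ps3 is shown as a more diverged copy, whose level relative to its parent was lower with D. Coding bases 154 to 273 are given, at chr4:147821942-147822061 on the minus strand and outside other genes, with 8 differing bases in capitals.
Rps19: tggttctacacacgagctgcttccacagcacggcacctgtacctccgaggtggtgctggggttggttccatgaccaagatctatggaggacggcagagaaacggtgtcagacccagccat
Rps19-ps3: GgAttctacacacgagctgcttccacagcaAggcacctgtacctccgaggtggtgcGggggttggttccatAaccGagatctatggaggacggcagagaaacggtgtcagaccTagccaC

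The named parent was the protein-coding gene with the best alignment for 190 members and another gene was for 20. Rpl36a-ps3 matched Rpl36al with 99.7% identity, and Eif4a-ps4, for which no parent row matched, aligned to Eif4a1, an RNA helicase of translation initiation, with 99.9%. No alignment was found for 3 members. By position, 128 members lie outside other annotated genes, 71 inside an intron and 14 in an exon of another gene. Since no source used here gives the strand setting of the counting, reads of a member and of a gene that overlaps it cannot be told apart.

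Expression was given as FPKM, fragments per kilobase of gene scaled to library size, and each value proved to be a whole number of reads divided by the gene's length and a library size. The reads in the table summed to 12.8 to 15.7 M per library, whereas the library size behind the FPKM values was 28.2 to 31.1 M without D and 7.13 to 8.4 M with D. One read is therefore worth several times more FPKM with D, and changes in FPKM depend on that scaling. Rescaling to the reads in the table lowered the median log2 change of all tested genes in NP-D@M against NP@M from -0.19 to -1.46. Changes and folds below are in FPKM unless another scale is named. Values relative to the parent or to the reads in the table are given for only part of the genes. Markers were looked up as a check of the label: Krt18 and Krt20 were the 2 of 8 colon epithelial markers in the table, summing to 15.1 to 18.7 FPKM without D and 73.0 to 91.1 with D. Of 6 fibroblast markers 5 were present, summing to 70.2 to 86.0 FPKM without D and 10.6 to 15.2 with D. The 3 of 6 myeloid markers present summed to 2.58 to 3.25 FPKM without D, where Ptprc was listed at 0, and to 9.31 to 21.3 FPKM with D. Pecam1, the only endothelial marker of 3 with a row, reached at most 0.191 FPKM, none of 5 lymphocyte markers had a row, and Sag, the only retinal marker of 7, stayed at or under 0.589 FPKM. The part of these differences in the results below was not tested.

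The members took up more of the reads in both groups with D. Their share of the reads in the table, a measure that does not use the authors' library size, was 0.722 ± 0.0380% under PBS and 0.653 ± 0.0353% under NP@M (SD, n = 3), against 1.46 ± 0.150% under NP-D@M and 1.64 ± 0.0488% under NP-D@MP. The ranges with and without D did not overlap, reaching 0.751% at most without D and starting at 1.32% with D. Parents went from 5.74 and 5.65% without D to 11.7 and 11.8% with D, and the 802 other pseudogene rows from 1.39 and 1.34% to 3.10 and 3.15%. Within the members, those of ribosomal proteins held 75.5 ± 1.62% and 73.3 ± 0.979% of the reads without D, and 87.0 ± 1.48% and 88.7 ± 0.385% with D.

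Of the 213 members, 182 reached 1 FPKM in 3 or more libraries, the filter used, and were tested among 10101 genes. The 31 below it included Rpl31-ps11, Rpl38-ps1, Rps6-ps3, Slc22a13b-ps, Rpl5-ps2, Rpl31-ps15, Rplp0-ps1, Rpl21-ps6, Ap3m1-ps, Ifi203-ps, Rpl36-ps3, Eif1-ps2, Rpl31-ps17, Rybp-ps, Ccnb2-ps, Rpl7a-ps7, Tsg101-ps, Rpl34-ps2, H2-T-ps, Rps6-ps2, Tmem181c-ps, Pgam1-ps1, Smarca5-ps, Rpsa-ps5, Rpl15-ps5, Rpsa-ps4, Alms1-ps2, Rpl19-ps3, Olfr756-ps1 and H2-M6-ps. A member high only with D could pass through those libraries alone, so the counts below describe the 182 and not all members. Since 1 read adds less FPKM without D, a member with few reads there and none with D could fail the filter. Without a filter, 160 of the 213 were called higher and 18 lower in NP-D@M against NP@M. All 12584 genes then gave 4422 higher and 5760 lower.

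NP-D@M against NP@M compares 2 names that differ by the D. Members mostly rose: 148 of 182 were called higher by limma on log2(FPKM + 1) at a Benjamini-Hochberg adjusted p under 0.05, 13 were called lower and 21 were not called. Among all 10101 genes 41.8% were called higher and 47.7% lower. The median log2 change was 1.73 for members and -0.19 for all genes, on a scale that understates the change of low genes. With values rescaled to the reads in the table, 87 members were called higher and 28 lower, with a median of 0.52. On that scale 1765 of the 10101 genes were called higher and 7124 lower, with a median of -1.46.

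Most ribosomal protein copies rose: 92 of 101 were called higher and none lower, and the median was 2.11. Scaled to the reads in the table, 64 were called higher and 1 lower, with a median of 0.83, and with quantile normalization 89 and 4, with a median of 1.68. Of the 79 protein-coding ribosomal protein genes tested, 78 were called higher in FPKM and 1 lower, with a median of 2.90. Of 105 parents 92 were called higher and 11 lower, with 2.47. On the reads in the table these genes gave 69 higher and 2 lower, with a median of 1.11, and the parents 65 and 29, with 0.66. With quantile normalization the genes gave 37 and 22, with a median of 0.23, and the parents 49 and 35, with 0.16. All 10101 genes then gave 3751 higher and 4369 lower, with a median of -0.15. In FPKM the 560 other pseudogene rows gave 415 higher and 55 lower, with a median of 1.41. Members are short, with a median length of 580 bases against 3831 for all rows. Among genes that are not members, 659 of 939 under 1000 bases were called higher and 110 lower, with a median of 1.60, while longer genes gave 3415 higher and 4692 lower of 8980, with a median of -0.42. The part of length in the members' rise was not tested.

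NP-D@MP against PBS shares no library with that comparison, and 161 members were called higher by limma, 15 lower and 6 not called. The background was 43.2% of genes higher and 47.3% lower, and the members' median was 1.94 against -0.16 for all genes. With the reads in the table as the scale, 104 members were called higher and 30 lower, while all 10101 genes gave 1771 higher and 7145 lower. In FPKM, ribosomal copies gave 100 higher and none lower of 101, and only Rpl30-ps3 among them was not called. The direction in FPKM was the same in both comparisons for 182 of 182 members, and 145 were called higher and 13 lower in both. The matching counts over all genes were not made. Both comparisons set libraries with D against libraries without D, and so carry the same difference in FPKM scaling.

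Small families showed both directions. Of the 5 members in the chromatin list, which holds only Hmg and H3f symbols, 4 were called higher in FPKM in each comparison and Hmgb1-ps1 lower. On the reads in the table, however, the changes of Hmgn2-ps1, Hmgb1-ps2 and H3f3a-ps1 were negative and H3f3a-ps2 was not called. Hmgn2-ps1, a copy of a gene for a nucleosome-binding protein, had a log2 change of 1.37 in NP-D@M against NP@M and 1.01 in NP-D@MP against PBS. Scaled to the reads in the table it had -0.42 and -0.84, and with quantile normalization -0.35 and -0.82. H3f3a-ps2, a copy of a replication-independent histone H3 gene, had 1.34 and 1.44 in FPKM, and 0.24 and 0.29 on the reads in the table (limma adjusted p = 0.427 and 0.345). H3f3a-ps1 had 1.04 and 0.89 in FPKM, and -0.54 and -0.80 on the reads in the table (limma adjusted p = 0.159 and 0.0463). Its FPKM call in the first comparison was lost without NP@M library 4 or NP-D@M library 9 (limma adjusted p = 0.078 and 0.0736) and in a fit of the 6 libraries compared (0.059), and in the second without any 1 of libraries 1, 2, 3, 11 and 12 (0.0553 to 0.104), with a pseudocount of 0.1 (0.0521) and with quantile normalization (0.0683). The copies in the respiratory list, Ndufab1-ps and Atp5l2-ps, were both called higher, by 3.24 and 2.38 in the first comparison. Of 2 glycolytic copies, Pgam1-ps2 rose by 2.38 there, while Ldha-ps2 had 0.51 (limma adjusted p = 0.0503) and 1.18 in NP-D@MP against PBS, where it was called higher; the difference between those comparisons was not tested. Ldha-ps2 on the reads in the table had -0.90, called lower, and -0.25, not called. Without NP-D@M library 7 its FPKM change in the first comparison was 0.81 (limma adjusted p = 0.000429). The only tested translation factor copy, Eif4a-ps4, and the only cytoskeletal one, Tubb4b-ps1, were called lower in both. All tested members of these families are named because the families are small.

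The 10 members with the highest mean over the 12 libraries were, in that order, Rps2-ps10, Rps2-ps13, Rps10-ps2, Tpt1-ps3, Rpl3-ps1, Rpl17-ps10, Rps16-ps2, Rpsa-ps10, Rps18-ps3 and Rpl17-ps3, and 9 of them carry ribosomal protein names. Rps2-ps10, a transcribed copy of Rps2 lying in an intron of Pde6a on the opposite strand, measured 535, 547 and 445 FPKM under PBS, 482, 418 and 477 under NP@M, 7562, 7819 and 9792 under NP-D@M and 10454, 9853 and 9368 under NP-D@MP. Its reads numbered 15843, 16172 and 12098 under PBS and 14265, 11943 and 14304 under NP@M. They numbered 61267, 54742 and 77575 under NP-D@M and 75440, 72105 and 64472 under NP-D@MP. In FPKM every library with D was far above every library without D. Its mean was 18.3 times higher in NP-D@M than in NP@M, a log2 change of 4.18 ± 0.12 (SE, n = 3 per group, limma adjusted p = 8.92e-11), and 19.4 times higher in NP-D@MP than in PBS, a log2 change of 4.28 ± 0.12 (SE, n = 3 per group, limma adjusted p = 7.34e-11).

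Rps2-ps13 measured 337, 386 and 261 FPKM under PBS, 248, 208 and 185 under NP@M, 4209, 3110 and 4864 under NP-D@M and 5839, 5090 and 5281 under NP-D@MP. The groups with and without D again did not overlap, and the changes were 4.23 ± 0.18 (SE, n = 3 per group, limma adjusted p = 1.28e-09) against NP@M and 4.05 ± 0.18 (SE, n = 3 per group, limma adjusted p = 1.78e-09) against PBS. Rps2 itself, at 19.3, 24.4 and 16.1 FPKM under PBS, 13.6, 12.5 and 11.6 under NP@M, 225, 138 and 265 under NP-D@M and 255, 299 and 265 under NP-D@MP, was lower than either copy in all 12 libraries, so the reads assigned to the family sat almost wholly on pseudogenes: 95.1 to 96.7% without D and 96.2 to 97.6% with D.

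Rps10-ps2, a copy of a small-subunit protein gene for which no parent row matched, measured 321, 330.4 and 282 FPKM under PBS, 323, 264 and 289 under NP@M, 2646, 2736 and 3284 under NP-D@M and 3422, 3256 and 3393 under NP-D@MP. It rose by 3.30 ± 0.11 (SE, n = 3 per group, limma adjusted p = 2.02e-10) and by 3.43 ± 0.11 (SE, n = 3 per group, limma adjusted p = 1.59e-10), with no overlap between libraries with and without D.

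Tpt1-ps3, all of whose words occur in Tpt1, measured 248, 241 and 230.1 FPKM under PBS, 261, 282 and 276 under NP@M, 2652, 2706 and 2458 under NP-D@M and 2424, 2619 and 2687 under NP-D@MP. Its parent rose in parallel: the log2 changes were 3.25 for the copy and 3.33 for Tpt1 in NP-D@M against NP@M, and 3.42 and 3.44 in NP-D@MP against PBS. The FPKM of Tpt1-ps3 was 31.0 to 32.6% of the parent without D (median 31.7%) and 29.9 to 32.2% with D (median 30.5%), a nearly constant fraction over 12 libraries.

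**Figure D1:**
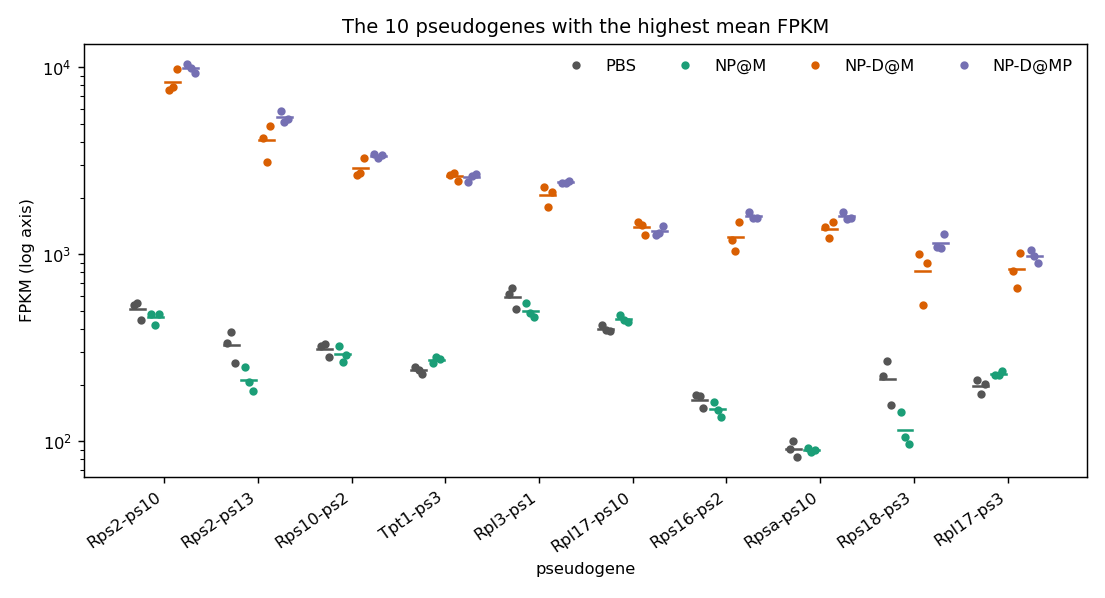
FPKM on a log axis of the 10 pseudogenes with the highest mean, with 1 point per library in 4 treatment groups and a bar at each group's mean (n = 3). For each of the 10, the 6 libraries with D lie above the 6 without; for Rps2-ps10 they reach 10454 FPKM.

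Rpl3-ps1, Rpl17-ps10 and Rpl17-ps3, copies of large-subunit protein genes, rose least of the 10. Their log2 changes in NP-D@M against NP@M were 2.05, 1.63 and 1.83, all called higher by limma. On the scale of the reads in the table the same changes were 0.22, -0.21 and -0.0023, and none of the 3 was called. With quantile normalization they were -1.12, -1.50 and -1.03. Rpl17-ps10 measured 419, 391 and 390.3 FPKM under PBS, 473, 446 and 433 under NP@M, 1491, 1433 and 1262 under NP-D@M and 1270, 1299 and 1419 under NP-D@MP, with no overlap between libraries with and without D in FPKM.

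Rps16-ps2, identical to Rps16 over its length, measured 176, 175 and 149.9 FPKM under PBS, 163, 146 and 136 under NP@M, 1195, 1041 and 1484 under NP-D@M and 1677, 1572 and 1564 under NP-D@MP and rose by 3.05 ± 0.13 (SE, n = 3 per group, limma adjusted p = 1.15e-09) and 3.26 ± 0.13 (SE, n = 3 per group, limma adjusted p = 6.65e-10). With quantile normalization the first change was 0.088 and was not called (limma adjusted p = 0.457). Rpsa-ps10, a copy of the gene for the ribosomal and laminin-binding protein RPSA, measured 91.3, 100.4 and 82.1 FPKM under PBS, 92.5, 87.2 and 89.4 under NP@M, 1394, 1223 and 1483 under NP-D@M and 1678, 1539 and 1569 under NP-D@MP. Its groups did not overlap and it rose by 3.91 ± 0.10 (SE, n = 3 per group, limma adjusted p = 5.55e-11) and 4.12 ± 0.10 (SE, n = 3 per group, limma adjusted p = 4.29e-11). Rps18-ps3 varied more within groups, from 532 to 1005 FPKM with NP-D@M, and rose by 2.78 ± 0.26 (SE, n = 3 per group, limma adjusted p = 8.17e-07) and 2.44 ± 0.26 (SE, n = 3 per group, limma adjusted p = 2.55e-06). On the reads in the table its change in NP-D@MP against PBS was 0.55 and was not called, and with quantile normalization it was -0.56. In NP-D@M against NP@M quantile normalization gave 0.042, not called (limma adjusted p = 0.867).

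Among the largest rises, Rpsa-ps2 measured 11.2, 12.7 and 9.48 FPKM under PBS, 9.11, 8.63 and 9.51 under NP@M, 193, 170.0 and 234 under NP-D@M and 270.3, 245 and 253 under NP-D@MP. It stayed under 13 FPKM in every library without D and was 21.9 times higher with NP-D@M than with NP@M and 23.0 times higher with NP-D@MP than with PBS. Its parent Rpsa rose 16.4 and 15.6 times. The reads of Rpsa-ps2 were 303, 343 and 235 under PBS and 246, 225 and 260 under NP@M. With NP-D@M they were 1427, 1085 and 1694, and with NP-D@MP 1779, 1638 and 1585.

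Tma7-ps, a copy of a gene for a small ribosome-associated protein, measured 6.85, 6.69 and 5.64 FPKM under PBS, 10.7, 11.4 and 7.76 under NP@M, 144, 130.1 and 216 under NP-D@M and 184, 172 and 196 under NP-D@MP. It rose by 3.88 ± 0.18 (SE, n = 3 per group, limma adjusted p = 2.62e-09) and 4.65 ± 0.18 (SE, n = 3 per group, limma adjusted p = 6.16e-10), while Tma7 rose by 3.43 and 3.43. Rps12-ps4 rose by 4.19 and 4.08, but lies in an exon of Nphs1 on the opposite strand. Rps26-ps1 rose by 3.95 and 3.42.

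Rpl38-ps2, all of whose words recur in Rpl38, measured 42.8, 28.5 and 29.5 FPKM under PBS, 35.5, 28.1 and 34.6 under NP@M, 409, 426 and 889 under NP-D@M and 677, 721 and 717 under NP-D@MP. In the NP-D@M group library 9 stood above the other two, as did Rpl38 itself at 1188, 1109 and 2027 FPKM. The log2 changes were 4.0 ± 0.26 (SE, n = 3 per group, limma adjusted p = 3.95e-08) and 4.37 ± 0.26 (SE, n = 3 per group, limma adjusted p = 1.79e-08). Rps12-ps10 ranged from 6.22 to 33.7 FPKM with NP-D@M and rose by 2.88 ± 0.45 (SE, n = 3 per group, limma adjusted p = 8.62e-05); it held between 4 and 24 reads in each library without D, so its fold is imprecise.

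Fewer tested members fell in FPKM, and none of those called lower carries a ribosomal protein name. Below the filter, the ribosomal copy Rpl19-ps3 held 4 to 31 reads in each library without D and 0 with D. Without a filter it was called lower in NP-D@M against NP@M, opposite to Rpl19. Rbpj-ps3 measured 108, 105 and 110.1 FPKM under PBS, 95.3, 103 and 88.1 under NP@M, 31.0, 26.3 and 25.2 under NP-D@M and 22.2, 28.4 and 27.5 under NP-D@MP. The highest library with D, at 31.0 FPKM, was far below the lowest without D, at 88.1. It fell by 1.76 ± 0.12 on the log2 scale in NP-D@M against NP@M (SE, n = 3 per group, limma adjusted p = 4.17e-08) and by 2.02 ± 0.12 in NP-D@MP against PBS (limma adjusted p = 1.25e-08). Rbpj changed by -1.74 and -1.81, and the FPKM of the copy stayed above that of Rbpj in every library. The row of Rbpj is longer, with 12750 bases against 1441 aligned bases of the copy. In reads the copy was below Rbpj in every library.

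Ptges3-ps measured 61.4, 46.0 and 72.9 FPKM under PBS, 63.6, 64.1 and 67.9 under NP@M, 11.2, 23.8 and 23.1 under NP-D@M and 15.6, 13.7 and 31.5 under NP-D@MP. All libraries with D were below all without, and the changes were -1.77 ± 0.32 (SE, n = 3 per group, limma adjusted p = 2.69e-04) and -1.59 ± 0.32 (SE, n = 3 per group, limma adjusted p = 6.17e-04). Ptges3 fell further, with -3.13 and -2.70, so that the FPKM of the copy was 85.1 to 127% of the parent without D (median 108%) and 140.4 to 438% with D (median 306%). Over the 480 bases of Ptges3-ps no base separates the 2, and the row of Ptges3 has a length of 2217 bases in the table.

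Tubb4b-ps1, from a beta-tubulin gene, held 62 to 102 reads in each library without D and 0 to 10 in those with D, or 1.999, 2.49 and 2.15 FPKM under PBS, 1.51, 2.02 and 2.41 under NP@M, 0, 0 and 0.274 under NP-D@M and 0, 0.494 and 1.05 under NP-D@MP. It changed by -1.45 ± 0.22 (SE, n = 3 per group, limma adjusted p = 6.68e-05) and -1.14 ± 0.22 (SE, n = 3 per group, limma adjusted p = 4.38e-04), and Tubb4b by -3.42 and -3.22. Stxbp3-ps, from a gene for a protein of vesicle fusion, had 34 to 51 reads without D, 0 in 5 libraries with D and 1 in the other. With the floor of 3 reads per library it was at least 3.86-fold lower in NP-D@M than in NP@M, and Stxbp3 fell too, by 1.99 on the log2 scale. Mageb7-ps, an X-linked unprocessed copy, had 18 to 41 reads without D and 0 in each library with D, at least 3.12-fold lower in NP-D@M than in NP@M and at least 1.68-fold lower in NP-D@MP than in PBS. Such bounds cover counting error only.

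Kansl2-ps, from a gene for a subunit of a histone acetyltransferase complex, changed by -0.97 and -1.16, and its parent by -0.73 and -0.50. Eif4a-ps4 measured 52.2, 52.1 and 53.5 FPKM under PBS, 56.4, 59.0 and 56.5 under NP@M, 26.0, 34.5 and 32.0 under NP-D@M and 22.4, 32.8 and 21.3 under NP-D@MP and fell by 0.88 and 1.04 on the log2 scale. Zfp862-ps, a unitary pseudogene and so not a copy of a working gene in the same genome, changed by -0.88 and -1.0. Pisd-ps1, Zfp422-ps and Amd-ps4 were called lower in both comparisons at means under 2.2 FPKM. Their call in NP-D@MP against PBS was lost with a pseudocount of 0.1, with adjusted p of 0.0525, 0.222 and 0.0931 by limma. It was also lost with limma voom on the recovered reads (adjusted p of 0.084, 0.20 and 0.0554) and with quantile normalization (limma adjusted p of 0.754, 0.916 and 0.539), which ended the call of Amd-ps4 in NP-D@M against NP@M as well (0.0682). It was lost for Amd-ps4 in a fit of the 6 libraries compared (limma adjusted p = 0.0748), and for Zfp422-ps and Amd-ps4 also without PBS library 3 (limma adjusted p of 0.125 and 0.167). Without NP-D@MP library 11 those of Zfp422-ps and Amd-ps4 were 0.0754 and 0.172, and without library 12 that of Zfp422-ps was 0.0667.

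Members and parents mostly moved the same way. In NP-D@M against NP@M, of 162 pairs in which both were tested, 134 had both called higher and 6 both lower. In 19 pairs only the parent was called, in 2 only the pseudogene (Hmgn2-ps1 and Tcea1-ps1, named after their values were seen), and in 1, Hmgb1-ps2, the calls were opposite. In NP-D@MP against PBS the counts were 145, 8, 6, 2 (Tcea1-ps1 and Mid1-ps1) and 1. The pairs called lower together in the first comparison were those of Rbpj-ps3, Ptges3-ps, Kansl2-ps, Hmgb1-ps1, Tubb4b-ps1 and Stxbp3-ps. On the reads in the table, 73 pairs were both higher and 16 both lower, and the pair with opposite calls was Rpl36a-ps3 instead. With quantile normalization 22 pairs had opposite calls. Without a filter, 3 of 188 pairs had opposite calls in FPKM in NP-D@M against NP@M: Hmgb1-ps2, Ccnb2-ps and Rpl19-ps3. In NP-D@MP against PBS 2 did, Hmgb1-ps2 and Ccnb2-ps. Ccnb2-ps was the lower of its pair, with 22 to 54 reads in each library without D and 0 to 4 with D. On the reads in the table Tcea1-ps1 had -0.78 and -0.58 in the 2 comparisons, both called lower, and Mid1-ps1 had 0.30 in the second, not called.

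**Figure D2:**
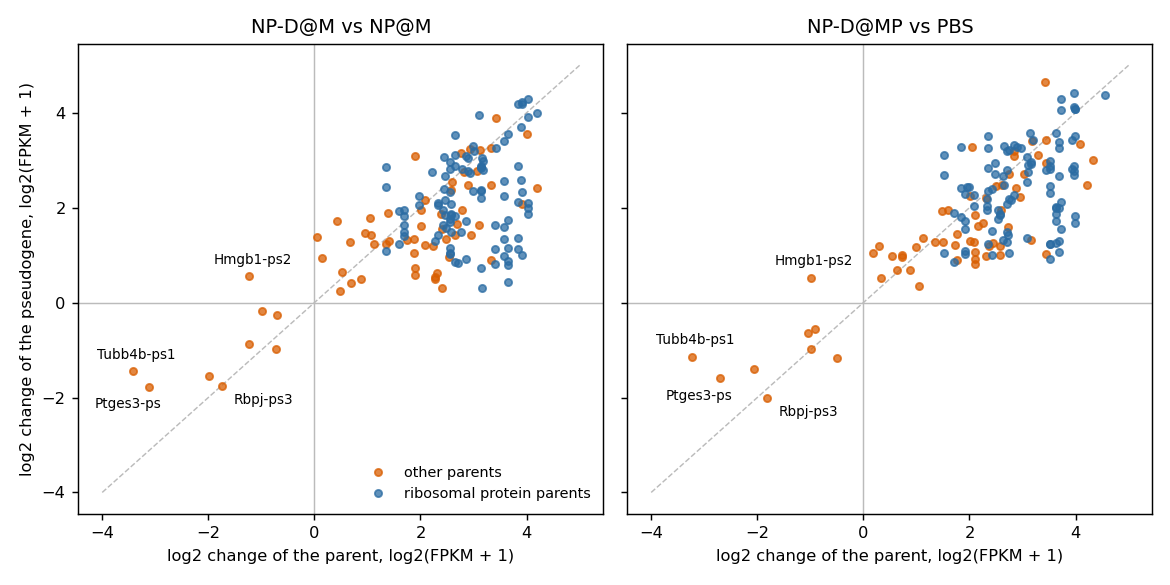
Log2 change of each pseudogene against that of its parent on the log2(FPKM + 1) scale for 162 pairs in 2 comparisons, with ribosomal protein parents in blue, other parents in orange and a dashed line of equal change. Most points are in the upper right, and Hmgb1-ps2 is the only called pair in the upper left, with 0.55 for the pseudogene and -1.23 for Hmgb1 on the left. On the reads in the table its change was -1.24.

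Hmgb1-ps2 measured 51.3, 48.3 and 49.96 FPKM under PBS, 35.7, 43.0 and 39.1 under NP@M, 53.2, 55.9 and 65.7 under NP-D@M and 81.4, 74.2 and 61.9 under NP-D@MP. The libraries with NP-D@M were above those with NP@M, and those with NP-D@MP above those with PBS. The changes were 0.55 ± 0.12 (SE, n = 3 per group, limma adjusted p = 0.00105) and 0.52 ± 0.12 (SE, n = 3 per group, limma adjusted p = 0.00157). Hmgb1 measured 10.6, 10.4 and 12.2 FPKM under PBS, 12.5, 14.1 and 14.0 under NP@M, 7.42, 4.31 and 4.32 under NP-D@M and 5.03, 5.01 and 5.08 under NP-D@MP and was called lower, with -1.23 and -1.0.

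The direction of Hmgb1-ps2 depended on the scaling. The reads behind it were 1002, 942 and 895 reads under PBS, 697, 811 and 773 under NP@M, 284, 258 and 343 under NP-D@M and 387, 358 and 281 under NP-D@MP, all lower with D, and on the scale of the reads in the table the changes were -1.24 and -1.34. With quantile normalization they were -1.18 and -1.38. The level relative to Hmgb1 does not depend on library scaling, and it was 279.8 to 484% of the parent without D (median 358%) and 717 to 1617% with D (median 1389%). The log2 ratio, with 1 added to each FPKM and so not free of the scaling, was higher by 1.65 with D, with no overlap. An exact two-sided permutation test of 6 against 6 libraries gave an unadjusted p of 0.00216, the smallest that 924 permutations allow here. That value was reached by 61 of the 162 pairs. Hmgb1-ps2 was singled out by its opposite calls in these same libraries, so this p adds no separate evidence. Hmgb1-ps1 measured 2.41, 2.01 and 3.64 FPKM under PBS, 2.78, 3.09 and 1.78 under NP@M, 0.564, 1.30 and 0.961 under NP-D@M and 0.633, 0.832 and 1.11 under NP-D@MP and fell with its parent, by 0.87 and 0.97 on the log2 scale. With quantile normalization its changes were -0.29 and -0.43 and neither was called (limma adjusted p = 0.222 and 0.0778).

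**Figure D3:**
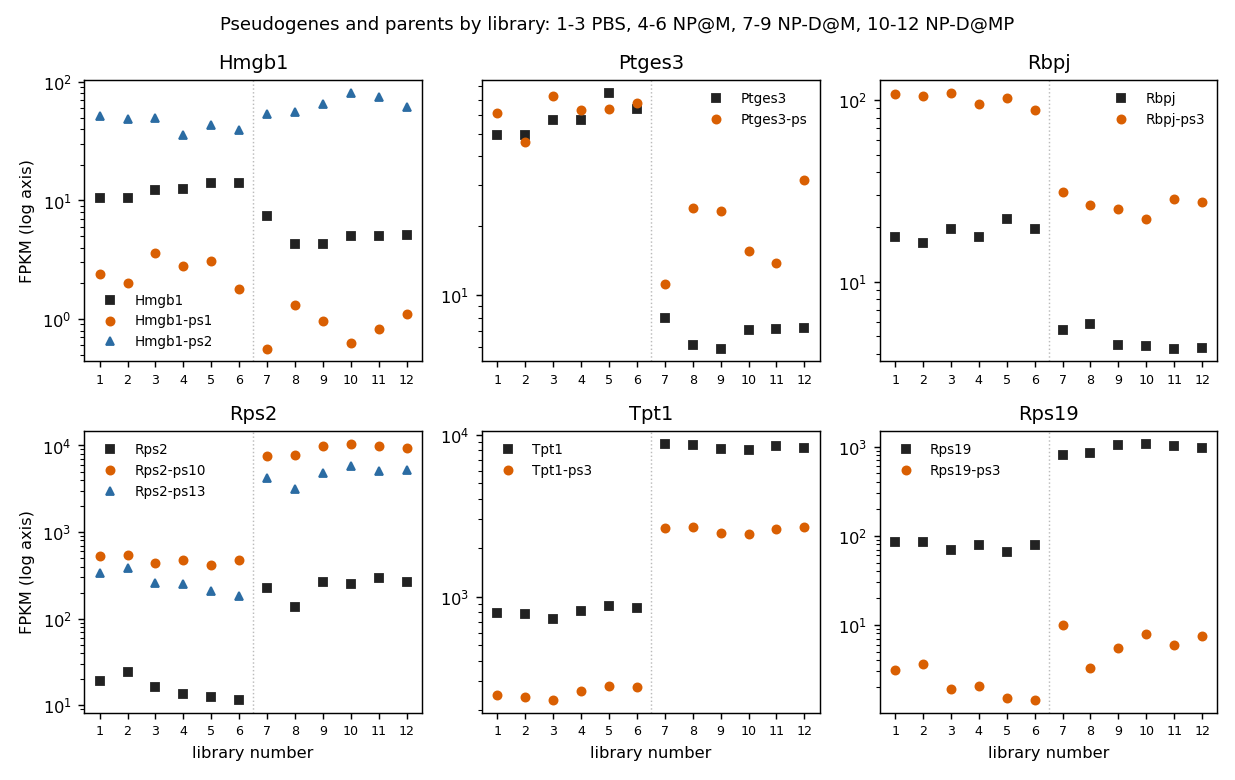
FPKM on a log axis in each of the 12 libraries for 6 parents (squares) and their pseudogenes (circles and triangles), with a dotted line between libraries without D (1 to 6) and with D (7 to 12). Hmgb1-ps2 lies above Hmgb1 throughout, at 35.7 to 81.4 FPKM, while Rps2-ps10 and Rps2-ps13 lie above Rps2 and rise with it.

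The level of a member relative to its parent was compared in the same 162 pairs. FPKM was higher in the pseudogene than in the parent in all 12 libraries for 15 pairs, and its reads were more numerous in all 12 for 9. FPKM divides by the length of the row, and the parents' rows are longer, with a median of 2576 bases against 550 for these members, so the FPKM ratio exceeds the ratio of reads. Rps2-ps10 held a median of 1908% of the reads of Rps2 with D and 1611% without. Rpl21-ps15, inside an intron of Wnk3 on the opposite strand, stood at 4187 to 8909% of the parent without D (median 5664%) and 8447 to 11531% with D (median 10401%). Rpl21 itself measured 0.613 to 5.86 FPKM, and together with the other named copies of Rpl21 the pseudogenes took 86.4 to 93.5% of the family's reads without D and 93.0 to 94.7% with D.

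Mpc1-ps, from a gene for a subunit of the mitochondrial pyruvate carrier, measured 51.7, 39.5 and 40.0 FPKM under PBS, 44.2, 41.8 and 38.3 under NP@M, 373, 302 and 415 under NP-D@M and 406, 434 and 460.2 under NP-D@MP. It stood at 817 to 1463% of the parent without D (median 1079%) and 1500 to 2883% with D (median 2264%), with no overlap. Hmgn2-ps1, identical to its chromatin protein parent Hmgn2 over its length, stood at 1550 to 3057% of the parent without D (median 2853%) and 2615 to 9558% with D (median 2929%). Other named families were the reverse: copies of Tpt1 took 6.35 to 6.64% of the family's reads without D and 6.16 to 6.59% with D, and the 7 copies of Rpsa took 6.26 to 6.96% and 5.76 to 7.55%. The 9 copies of Rpl31 took 5.92 to 8.63% and 5.78 to 8.37%, and the 6 of Rps19 took 2.78 to 3.66% and 2.47 to 3.17%. In these 4 families the ranges with and without D overlapped.

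The ratio of pseudogene to parent was tested pair by pair between the 6 libraries with D and the 6 without, by an exact two-sided permutation test of log2((pseudogene FPKM + 1)/(parent FPKM + 1)), with no adjustment over the 162 pairs. The ratio was higher with D in 26 pairs and lower in 74 at p under 0.05, which is 16.0% and 45.7% of them. For 61 pairs p was 0.00216, the smallest possible. The count of lower pairs depended on the pseudocount: it was 13 with a pseudocount of 0.1, and 11 of 140 pairs with none. The count of higher pairs was 24 and 26 under those settings. Without a pseudocount the median percent of the parent was higher with D in 111 of the 162 pairs, and its median over pairs was 5.69% without D and 7.17% with D.

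Without any pseudocount, the FPKM in percent of the parent did not overlap between libraries with and without D in 13 pairs. It was higher with D in 11, namely Rps16-ps2, Rpl28-ps1, Mpc1-ps, Rpl19-ps11, Tma7-ps, Hmgb1-ps2, Ptges3-ps, Vdac3-ps1, Sms-ps, Rps15a-ps7 and Tcea1-ps1. It was lower in 2, Rpl34-ps1 and Rps19-ps3. Of the 11 higher, 4 have no 50-base word of their own, 4 have above 0 to 25% and 3 above 25 to 50%. None of the 27 pairs with more than 50% was among those 11. Of the 2 lower, 1 has no word of its own and 1 more than 50%. Tma7-ps stood at 26.9 to 55.5% of the parent without D (median 36.6%) and 61.1 to 80.7% with D (median 75.5%), and Rps16-ps2 at 39.3 to 43.4% of the parent without D (median 40.9%) and 45.3 to 50.1% with D (median 48.5%). Rpl34-ps1 stood at 24.1 to 28.3% of the parent without D (median 27.0%) and 12.8 to 20.0% with D (median 15.1%).

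Rps19-ps3, the diverged copy shown above, stood at 1.83 to 4.36% of the parent without D (median 2.72%) and 0.385 to 1.24% with D (median 0.653%). Its longest open reading frame has 34 codons against 145 in Rps19, and 37.1% of its words recur in other genes. It measured 3.13, 3.67 and 1.92 FPKM under PBS, 2.07, 1.51 and 1.44 under NP@M, 10.1, 3.24 and 5.43 under NP-D@M and 7.85, 5.88 and 7.57 under NP-D@MP and was called higher, with 1.34 ± 0.29 (SE, n = 3 per group, limma adjusted p = 0.00108) and 1.07 ± 0.29 (SE, n = 3 per group, limma adjusted p = 0.00465). On the reads in the table its changes were -0.025 and -0.47, neither called. Its reads were 41, 48 and 23 reads under PBS, 27, 19 and 19 under NP@M, 36, 10 and 19 under NP-D@M and 25, 19 and 23 under NP-D@MP, so the values rest on few reads. Rps19 rose more, by 3.57 and 3.68.

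**Figure D4:**
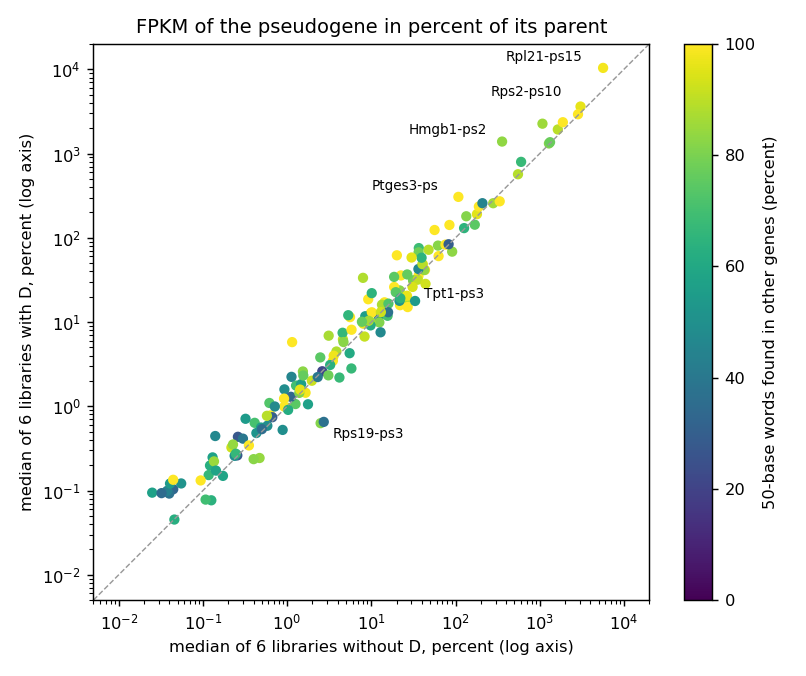
FPKM of the pseudogene in percent of its parent, as the median of 6 libraries without D (horizontal) and 6 with D (vertical) on log axes, for 158 of 162 pairs with both medians above 0, coloured by the percent of 50-base words found in other genes. Points lie near the dashed line of equal percent; Hmgb1-ps2 is above it at 358 and 1389%, and Rps19-ps3 below it at 2.72 and 0.653%.

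The share of words that recur elsewhere went with how much of the parent's level a member showed. In the 31 pairs whose pseudogene has no word of its own, the median FPKM was 21.9% of the parent without D and 26.1% with D. In 56 pairs with above 0 to 25% of words of their own it was 12.7 and 14.6%, in 48 with above 25 to 50% it was 2.12 and 1.80%, and in 27 with more than 50% it was 0.666 and 0.587%. This is a description over pairs that share parents and libraries, and reads of a member without words of its own cannot be told apart from those of the other genes by sequence of that length.

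The rise in FPKM with D was seen at both ends of that range. The calls by share of words were not counted on the reads in the table. In NP-D@M against NP@M, 29 of 33 tested members without a word of their own were called higher and 3 lower, with a median log2 change of 1.89. Among the 35 with more than 50% of words of their own, 24 were called higher and 3 lower, with a median of 1.34, and in NP-D@MP against PBS 28 and 3. Of all genes, 41.8% were called higher and 47.7% lower in NP-D@M against NP@M, and 43.2% and 47.3% in NP-D@MP against PBS. Apoo-ps, the first by name of the members whose words all recur elsewhere, is a copy of a mitochondrial inner membrane protein gene and measured 0.500, 1.56 and 0.969 FPKM under PBS, 0.834, 1.79 and 1.32 under NP@M, 1.83, 4.94 and 8.11 under NP-D@M and 7.30, 8.33 and 4.55 under NP-D@MP. It changed by 1.23 ± 0.37 (SE, n = 3 per group, limma adjusted p = 0.00848) in FPKM, and by -0.023 on the reads in the table, where it was not called.

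Dnmt3l-ps1, from a gene for a cofactor of DNA methyltransferases, had no word in common with any other gene and the lowest identity to its parent, 71.6%. It measured 0.312, 0.703 and 0.567 FPKM under PBS, 0.312, 0.539 and 0.771 under NP@M, 0.0951, 2.53 and 2.24 under NP-D@M and 1.60, 1.79 and 1.79 under NP-D@MP. The NP-D@M libraries spanned the range of the NP@M ones, and the log2 change was 0.60 ± 0.35 (SE, n = 3 per group, limma adjusted p = 0.119), not called. Library 7 held 1 read, and without it the change was 1.14 (limma adjusted p = 2.01e-05). In NP-D@MP against PBS it was 0.84 ± 0.35 (SE, n = 3 per group, limma adjusted p = 0.0372), a call lost when any of the 6 libraries was left out (limma adjusted p from 0.0517 to 0.104).

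**Figure D5:**
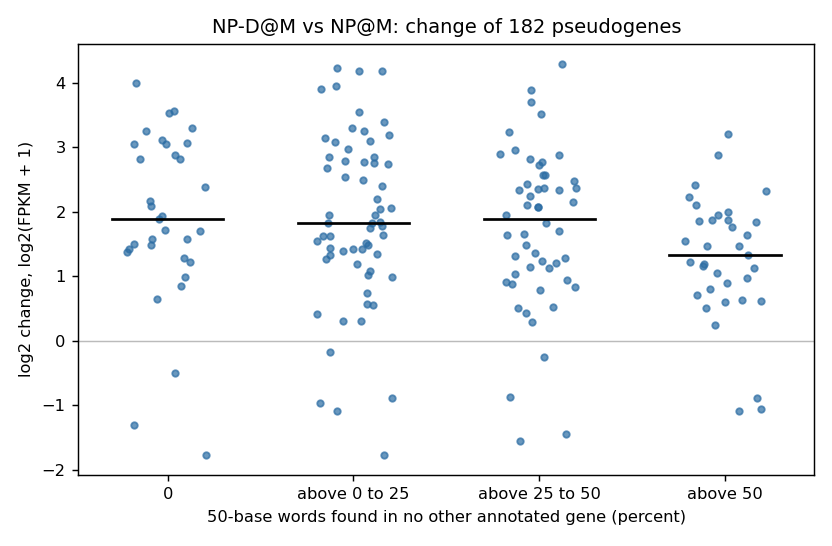
Log2 change in NP-D@M against NP@M on the log2(FPKM + 1) scale of 182 pseudogenes, by the percent of their 50-base words found in no other annotated gene, with 1 point per pseudogene and a bar at the median. The medians are 1.89, 1.83, 1.89 and 1.34 from left to right.

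The treatments without D were compared with each other as NP@M against PBS. No member was called higher or lower by limma, against 0.0% of all genes higher and 0.0099% lower. At an unadjusted p under 0.05 there were 27 of 182 members and 1092 of all 10101 genes. Limma voom on the recovered reads called no member. The median log2 change was -0.057. The smallest p belonged to Mageb7-ps, at 1.13 ± 0.133 FPKM with NP@M and 0.653 ± 0.0585 FPKM with PBS (SD, n = 3), with a limma adjusted p of 0.448. Rps10-ps1 had 11.7 ± 2.12 FPKM and 25.6 ± 4.11 FPKM, with the same adjusted p. Rps10-ps1 was named after its values were seen.

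NP-D@MP against NP-D@M compares the 2 groups with D. No member was called by limma, while 0.0396% of all genes were called higher and 0.0099% lower. There were 38 of 182 members at an unadjusted p under 0.05, and 1713 of all 10101 genes. Limma voom called no member, and the members' median log2 change was 0.23. Rpl13-ps6, named after its values were seen, came nearest, with 13.2 ± 1.37 FPKM with NP-D@MP and 5.53 ± 1.52 FPKM with NP-D@M (SD, n = 3, limma adjusted p = 0.0549). Without NP-D@M library 9, 37 members were called higher and 4 lower, of 969 genes higher and 290 lower among 10101.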

How the data were processed

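The authors' deposited table holds FPKM of 12584 genes in 12 libraries of CT26 cells. RNA input was 1 ug for an Illumina TruSeq preparation, per the labels' protocols, which mention retinas although the samples are CT26 cells. The submitters' processing notes list Bowtie 0.12.2 and mm8, whereas the coordinates in the table are those of GRCm38; the gene counter, strand setting and library sizes are not given in the sources used here. FPKM times length was a whole multiple of 1 step per library for 100% of values within 1e-06, from which reads and library sizes were recovered. Reads that fit several near-identical genes may have been dropped, split or counted more than once, so the levels of members and parents are uncertain.

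Tests used R 4.3.3 and limma 3.58.1 with log2(FPKM + 1) as input, all 12 libraries in a single fit, on the 10101 genes with at least 1 FPKM in at least 3 libraries, with Benjamini-Hochberg adjustment over all of them and a threshold of 0.05. The fit was run on simulated data only for NP@M against PBS and NP-D@MP against NP-D@M, whose groups have similar library sizes. Comparisons of libraries with D against those without were not simulated. Log2 changes refer to the scale of log2(FPKM + 1) unless another is named, and folds are ratios of mean FPKM. The floor for a gene at 0 was 3 reads per library. Groups were taken from the sample titles. Replicates differed by more than sampling noise, the chi-square divided by its degrees of freedom ranging from 6.64 to 51.8, so none was treated as a duplicate.

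Member and parent transcripts of the GENCODE M21 annotation of GRCm38 were aligned with blastn 2.17.0 at an expectation value of 1e-10, on the plus strand, and words of 50 bases were counted over all annotated transcripts. Printed sequences were read from those transcripts.

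The members and lists were chosen with earlier results of these data known. By rule the text names the 10 highest members, among called members the 8 that rose most and the 8 that fell most without overlap in each comparison, members called opposite to a called parent, all parents of these, the members below the filter, and the 2 extremes of word sharing. Genes named elsewhere, as in the sections on small families, families of copies and percent of the parent, were chosen after their values were seen. Rpsa copies were counted with the ribosomal proteins although the written rule covers only symbols with a digit. Alternatives were other scalings, filters, pseudocounts, limma settings, a fit on 6 libraries and leaving out each library; counting only members with at least 50% of words of their own was added after seeing the data.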

Additional observations from a re-analysis of the deposited data

How the results depend on the processing

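No paired analysis was possible because the titles number the libraries 1 to 12 in a single series and no number is shared between groups. Scaled to the reads in the table, calls in NP-D@M against NP@M were 87 higher and 28 lower, and in NP-D@MP against PBS 104 and 30; with a mean of at least 5 FPKM they were 94 and 5, and 93 and 6; over the 35 members with at least 50% of words of their own, 24 and 3, and 28 and 3. All 4944 genes with a mean of at least 5 FPKM gave 3193 higher and 1381 lower in NP-D@M against NP@M. In NP-D@MP against PBS they gave 3245 and 1339. Quantile normalization gave 140 members higher and 20 lower in NP-D@M against NP@M, and 3751 and 4369 of all 10101 genes. Without a filter, 1 member was higher and 1 lower in NP-D@MP against NP-D@M, and 11 and 10 of all 12584 genes. Leaving out each library gave 143 to 155 higher and 13 lower in NP-D@M against NP@M, 154 to 156 and 12 to 15 in NP-D@MP against PBS, 0 to 37 and 0 to 4 in NP-D@MP against NP-D@M, and 0 in NP@M against PBS. It gave 22 to 28 pairs with a higher and 71 to 75 with a lower ratio to the parent; pairs with a lower ratio were 13 with a pseudocount of 0.1 and 11 with none.

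Log2 changes turned negative for some named genes, and the cause was not tested. With quantile normalization, in NP-D@M against NP@M, they were -0.064 for Rps16, -0.92 for Rpl3, -0.0095 for Tpt1, -1.06 for Rpl17, -1.18 for Hmgb1-ps2, -1.50 for Rpl17-ps10, -1.12 for Rpl3-ps1, -1.76 for Tcea1, -0.35 for Hmgn2-ps1 and -1.03 for Rpl17-ps3. In NP-D@MP against PBS they were -0.11 for Rps16, -0.56 for Rps18-ps3, -0.94 for Rpl3, -0.83 for Rpl17, -1.38 for Hmgb1-ps2, -1.30 for Rpl17-ps10, -1.13 for Rpl3-ps1, -1.57 for Tcea1, -0.82 for Hmgn2-ps1 and -0.67 for Rpl17-ps3. Scaled to the reads in the table, they were -0.023 for Apoo-ps, -0.14 for Rpl17, -0.39 for Apoo, -1.24 for Hmgb1-ps2, -0.21 for Rpl17-ps10, -1.66 for Tcea1, -0.78 for Tcea1-ps1, -0.43 for Mid1, -0.42 for Hmgn2-ps1, -0.025 for Rps19-ps3, -0.54 for H3f3a-ps1, -0.90 for Ldha-ps2 and -0.0023 for Rpl17-ps3 in the former, and -0.19 for Apoo, -1.34 for Hmgb1-ps2, -0.071 for Dnmt3l-ps1, -1.57 for Tcea1, -0.58 for Tcea1-ps1, -0.85 for Mid1, -0.84 for Hmgn2-ps1, -0.47 for Rps19-ps3, -0.80 for H3f3a-ps1, -0.25 for Ldha-ps2 and -0.16 for Rpl17-ps10 in the latter. Depth limits the members with few reads: in a 1 kb gene 1 read added 0.0322 to 0.0355 FPKM without D but 0.119 to 0.140 with D.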

Other observations

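The table also holds 12 rows with -ps in the symbol that carry another biotype and so were not members: 10 are typed protein coding, 1 as a lincRNA and 1 as a bidirectional promoter lncRNA. Of these, 11 passed the filter, and all 11 were called higher by limma in NP-D@M against NP@M and in NP-D@MP against PBS, where 41.8% and 43.2% of all genes were. The most abundant, Rps12-ps3, named after its values were seen, measured 241, 224 and 242 FPKM under PBS, 326, 328 and 396 under NP@M, 5844, 6647 and 4331 under NP-D@M and 4489, 4617 and 4691 under NP-D@MP. Its FPKM was above that of Rps12, the small-subunit gene it is named for, in all 12 libraries, and its log2 changes were 3.98 and 4.28. Ftl1-ps1, named for a ferritin light chain gene, measured 9.69, 10.7 and 8.48 FPKM under PBS, 6.96, 6.98 and 7.68 under NP@M, 86.0, 89.2 and 133 under NP-D@M and 160.2, 119 and 124 under NP-D@MP, with no overlap between libraries with and without D. Its log2 changes were 3.63 and 3.67.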
